A study of Mus musculus with 60 samples.

Results

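The cytosolic ribosomal protein genes were examined in whole colon of naïve mice and of mice with collagen-induced arthritis (CIA). Members were the protein coding rows of the count table whose symbol was Rpl or Rps followed by a digit, or was Rpsa, Rplp0, Rplp1 or Rplp2, with the Rps6k kinases and symbols holding -ps left out. This gave 89 of 27179 genes. Of these, 77 encode canonical subunits of the ribosome (31 of the 40S and 46 of the 60S subunit), and 12 are paralogs, retrocopies or genes that carry a ribosomal protein's name for another reason (look-alikes). RNA-seq was performed on 60 libraries, 1 per mouse, from 12 groups of 5 mice. All mice were male DBA/1. CIA mice were immunized at 9 to 10 weeks of age with bovine type II collagen in Complete Freund's adjuvant, were boosted on day 21 with the same collagen in saline, and gave tissue 7 days after symptoms appeared. The naïve mice received neither agent and shared cages with the CIA mice. Both treatments were collected at zeitgeber time (ZT) 0, 4, 8, 12, 16 and 20, where ZT0 is lights on in a 12 h light and 12 h dark cycle. The tissue was a 5 mm piece of mid-colon with all its layers, so that a smaller share of a cell type and less RNA per cell could not be told apart. Disease was scored by limb, and all mice were of 1 inbred strain and 1 sex.

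The ribosome is built from a 40S subunit, which reads the mRNA, and a 60S subunit, which joins amino acids, and its proteins are needed in near equal numbers. In mammals the mRNAs of these proteins begin with a C followed by a run of pyrimidines at the 5′ end (a TOP motif), through which mTORC1 and the binding protein Larp1 control their translation together. In the gut the load of protein synthesis is set by epithelial renewal, secretion and feeding, and mice feed mainly in the dark.

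The starts of a few members named in the level and timing results are shown first, because the tract marks the shared class of mRNA. The lines shown do not stand for all called members. Rpl15 and Rps2 fell with a tract at the start, and Rps12 rose without one. Each window is given 5′ to 3′ on the gene's strand, with 10 bases before and 20 bases from the first RefSeq start listed (GRCm38.p6), and capitals mark a C followed by at least 4 pyrimidines that begins within 5 bases of that start. Rplp2 (chr7:141447641-141447670, + strand) and Rps21 (chr2:180257369-180257398, + strand) rose most in CIA. Rpl4 (chr9:64173377-64173406, + strand) was the canonical member with the lowest fold change among those that fell, and Rps3 (chr7:99483690-99483719, - strand) fell as well. The remaining lines are Rps27 (chr3:90213629-90213658, - strand) with its paralog Rps27l (chr9:66946076-66946105, + strand), Rpl36a (chrX:134585644-134585673, + strand) with its paralog Rpl36al (chr12:69184048-69184077, - strand), and the look-alikes Rpl7l1 (chr17:46782637-46782666, - strand) and Rps19bp1 (chr15:80264287-80264316, - strand), whose timing differed.
Rplp2: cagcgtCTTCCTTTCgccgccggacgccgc
Rps21: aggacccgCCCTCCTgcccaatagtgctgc
Rpl4: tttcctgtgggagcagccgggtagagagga
Rps3: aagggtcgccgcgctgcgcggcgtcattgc
Rps27: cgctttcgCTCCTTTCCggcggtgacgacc
Rps27l: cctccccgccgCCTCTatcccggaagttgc
Rpl36a: cccaggcaccgcctataaacttccgttgcg
Rpl36al: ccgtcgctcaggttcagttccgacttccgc
Rpl7l1: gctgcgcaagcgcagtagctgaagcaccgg
Rps19bp1: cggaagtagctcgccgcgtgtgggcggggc

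Of the 89 members, 69 had a promoter sequence of 300 bases in the RefSeq table (250 before to 50 after the start), and a gene was counted where any of its listed promoters held the letters. The pyrimidine tract stood at the start in 47.4% of 57 canonical members, 41.7% of 12 paralogs and look-alikes and 21.4% of 17423 other protein-coding genes. CCGGAAG, the core letters bound by ETS factors such as GABP, was found on either strand in 42.1% of canonical members, 16.7% of paralogs and look-alikes and 12.9% of other genes. GGGCGG, the letters bound by Sp1, was present in 61.4%, 50.0% and 49.2%, and AAGATGGC, bound by YY1, in 8.8%, 8.3% and 3.5%. Letters bound by circadian factors were also counted. CACGTG, an E-box of the activators Clock and Arntl, was found in 10.5% of canonical members and 8.9% of other genes, TTANGTAA, a D-box, in 1.8% and 2.6%, and the element bound by ROR and REV-ERB (RORE) in 0.0% and 0.2%. These are matches of letters in a fixed window, and a listed start a few bases away from the used start would hide a tract.

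Counting covered 87 of the 89 members at a level that could be tested. Rpl10l, the testis paralog of Rpl10, had 0 counts in all 60 libraries, and Rpl39l, the testis paralog of Rpl39, had 61 counts in all. The libraries held 25840240 to 61425974 counted reads or read ends, and the members took 3.55% ± 0.373 of them in naïve mice and 3.55% ± 0.338 in CIA mice (SD, n = 30 each). Of the 77 canonical members, 75 averaged between 100 and 2000 CPM (counts scaled to library size by TMM), with a median of 413 CPM. Per kilobase of coding sequence, Rpl41, which encodes the shortest protein of the ribosome, stood highest at 10396 CPM, followed by Rps29 of the 40S subunit at 3366 CPM and the stalk protein gene Rplp1 at 3254 CPM. Among tested members with a coding length, which Rpl32l and Rpl37rt lack here, levels per kilobase were lowest for the striated muscle paralog Rpl3l at 0.346 CPM, for Rpl39 at 0.978 CPM and for the retrocopy Rps23rg1 at 1.73 CPM. Rpl39 encodes a core 60S protein, yet it had 390 counts in all libraries together and at most 14 in any, far below every other canonical member. Near-identical copies exist for much of the family: for 27 of 86 members every 76-base stretch of the coding sequence, the length of a read, also occurred in another annotated gene, and for 65 more than 50% did. How reads with several matching places were counted is not given in the sources used here, so the absolute level of such members is uncertain. Rps3, Rps19bp1 and Rpl3l shared 0% of their stretches.

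Markers of the other tissues in the piece moved with treatment. All 12 smooth muscle markers were higher in CIA (median log2 fold change 0.66), with a mean log2 CPM of 8.67 to 10.79 in naïve and 9.48 to 11.19 in CIA libraries, and all 8 enteric neuron markers were higher. All 6 plasma cell and all 7 macrophage markers and 9 of 10 crypt proliferation markers were lower, as were 4 of 7 T cell and 2 of 10 epithelium markers. None of 8 B cell markers passed, though their mean ranged from -0.48 to 5.89 log2 CPM between libraries. Epithelial markers averaged 10.08 log2 CPM in either treatment, so the tissue matched its label. Skeletal muscle markers stood at 5.56 log2 CPM in CIA ZT12 replicate 2 and 4.01 in Naïve ZT0 replicate 5, against at most 1.22 in the other 58 libraries. Without this pair, 12 members were higher and 19 lower over all time points.

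Over all time points the members did not move as a block. With 30 mice per treatment, 12 of the 87 tested members were higher in CIA and 18 were lower (edgeR quasi-likelihood test, Benjamini-Hochberg adjusted p under 0.05 over 18057 genes). Of all genes tested, 17.6% were higher and 20.4% lower, shares close to the members' own. The changes were small. The median log2 fold change was -0.022 for members and -0.025 for all genes, and only 2 called members, Rplp2 and Rps23rg1, reached 0.26 (1.2-fold) in either direction. The 40S members split into 7 higher and 5 lower of 31, and the 60S members into 5 higher and 11 lower of 46. All 18 members that fell were lower in CIA at each of the 6 times, 10 of the 12 that rose were higher at each, and the other 2 at 5 of 6.

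The stalk of the 60S subunit, which recruits the elongation factors, included the gene that rose most. Rplp2 (gene 67186, chr7:141447651-141451359) ranged from 357 to 704 CPM in naïve mice, with a median of 539, and from 443 to 829 CPM in CIA mice, with a median of 642. The ranges overlapped widely, and it rose by 0.29 on the log2 scale (SE 0.062, adjusted p = 0.000215). Rplp1, its partner in the stalk, rose by 0.12 on the log2 scale (SE 0.047, adjusted p = 0.0323), from a median of 1082 to one of 1160 CPM. With the smooth muscle score as a term the log2 fold change of Rplp1 no longer passed (adjusted p = 0.0537, edgeR). Rplp0, which anchors both to the ribosome, had 716 and 672 CPM at the median and a change of -0.057 on the log2 scale (SE 0.039, adjusted p = 0.259).

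Among 40S genes, Rps21 (gene 66481, chr2:180257379-180258444) had 261 to 496 CPM in naïve mice (median 379) and 334 to 567 CPM in CIA mice (median 444). It rose by 0.25 (SE 0.053, adjusted p = 0.000128). Rps12 had medians of 825 and 934 CPM and rose by 0.19 (SE 0.051, adjusted p = 0.00232). Rps24, Rps28 and Rps3a1 rose as well, by 0.14 to 0.16. The 40S genes that fell were Rps3, Rps4x, Rps2, Rps25 and Rps7. Rps3 (gene 27050, chr7:99477896-99483709), which lines the mRNA entry, had medians of 681 CPM in naïve and 594 CPM in CIA mice, with ranges of 570 to 813 and 510 to 790 CPM, and its log2 fold change was -0.18 (SE 0.038, adjusted p = 0.000152). Its coding sequence shares no read-length stretch with another annotated gene, while its untranslated parts were not compared. Rps6, the substrate of S6 kinase, had medians of 291 and 286 CPM and did not pass (log2 fold change -0.030, SE 0.051). Rpsa, also known as the laminin receptor, had medians of 688 and 736 CPM (0.091, SE 0.058), and Rps27a, which is made as a fusion to ubiquitin, 521 and 548 CPM (0.069, SE 0.052). Neither passed.

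Among 60S genes, Rpl38 (gene 67671, chr11:114667818-114672333) had 187 to 335 CPM in naïve mice (median 256) and 241 to 363 CPM in CIA mice (median 298), and rose by 0.21 (SE 0.047, adjusted p = 0.000332). Rpl36a and Rpl37a each rose by 0.18. Of the genes that fell, Rpl4 (gene 67891, chr9:64173387-64178562), which lines the exit tunnel, had 686 to 1002 CPM in naïve mice (median 795) and 570 to 948 CPM in CIA mice (median 673). In CIA it changed by -0.23 on the log2 scale (SE 0.039, adjusted p = 8.71e-06), the smallest adjusted p of any member. Rpl13 (gene 270106, chr8:123102350-123105244) had medians of 121 and 106 CPM, Rpl29 (gene 19944, chr9:106428889-106431568) of 48.6 and 40.6 CPM, and Rpl15 (gene 66480, chr14:18267823-18270986) of 194 and 171 CPM. Their log2 fold changes were -0.21, -0.21 and -0.18 (adjusted p = 4.91e-05, 3.19e-05 and 4.97e-05). Rpl5 and Rpl11 travel to the ribosome with 5S rRNA and bind Mdm2 when assembly fails. Rpl11 fell by 0.11 (SE 0.040, adjusted p = 0.021), from a median of 341 to one of 321 CPM, and Rpl5 had 465 and 432 CPM (log2 fold change -0.082, adjusted p = 0.137).

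**Figure D1:**
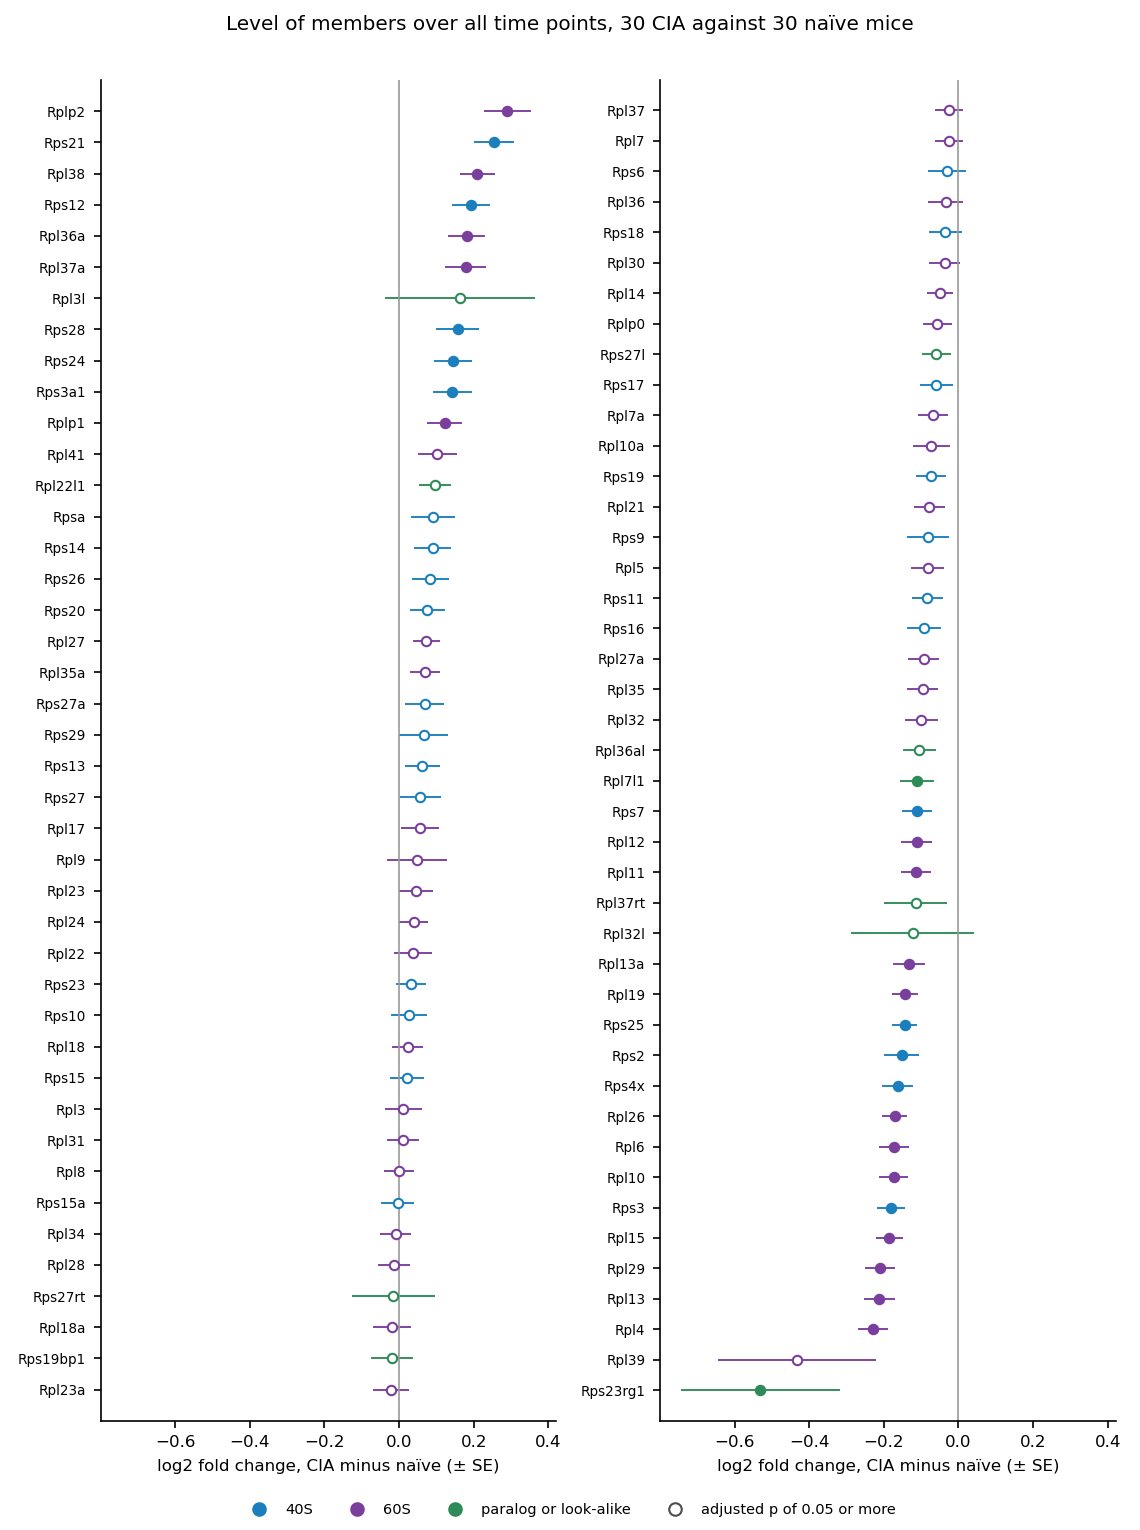
Log2 fold change of the members shown over all time points (CIA minus naïve, ± SE, 30 mice per treatment), ordered from highest to lowest; blue is 40S, purple 60S and green a paralog or look-alike, and open circles did not pass. Rplp2 stands at the top at 0.29, most values lie within 0.26 of 0, and Rps23rg1 and Rpl39, both under 1 CPM, have the widest errors.

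Of the 10 paralogs and look-alikes tested, 0 rose and 2 fell. Rps23rg1 (gene 546049, chr8:3567998-3584776), a retrocopy of Rps23, had a median of 0.883 CPM in naïve and 0.481 CPM in CIA mice (log2 fold change -0.53, SE 0.21, adjusted p = 0.0425), and 93.7% of its stretches occur elsewhere. Rpl7l1, a nucleolar relative of Rpl7, had medians of 78.2 and 72.6 CPM (-0.11, SE 0.045, adjusted p = 0.0451), while Rpl7 itself stood at 882 and 863 CPM (-0.025, SE 0.037). Both calls were near the threshold and were lost when 1 of many single libraries was left out, in 28 of 60 runs for Rpl7l1 and 25 of 60 for Rps23rg1. Rpl22l1, the paralog that compensates for Rpl22, had medians of 117 and 125 CPM (0.097, SE 0.043, adjusted p = 0.0697) beside 253 and 253 CPM for Rpl22. Rpl3l had 0.387 and 0.381 CPM at the median and its highest level, 1.34 CPM, in the library CIA ZT12 replicate 2 with the highest skeletal muscle markers.

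The balance of higher and lower calls changed with the filter and with a covariate. When only genes of at least 5 CPM on average were kept, which changed the scaling, 18 members were higher and 12 lower, and the median turned to 0.013. With the smooth muscle score added as a term 11 were higher and 1 was lower, and the median turned to 0.063. The member that was lower was Rpl29 (log2 fold change -0.19, adjusted p = 0.022, edgeR). The shares of all genes called in these runs were not counted, so a change particular to the members is not shown. The smooth muscle markers were themselves higher in CIA, so this term overlaps with treatment and the 2 cannot be told apart. The part of smooth muscle in the lower calls was not tested beyond this covariate. Rplp2, Rps21, Rpl38 and Rps12 kept their direction and passed in all 79 alternatives, 60 of which left out only 1 library.

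The called members differed in coding length. Over the 77 canonical members, log2 fold change and log2 coding length had a Pearson r of -0.317 and a Spearman rho of -0.434, given as a description, since genes share libraries and are not independent. Of 27 members with 75 to 405 nt of coding sequence, 9 were higher and 1 was lower (median log2 fold change 0.066). Of 24 members with 408 to 564 nt, 0 were higher and 4 lower (-0.016), and of 26 with 576 to 1257 nt, 3 were higher and 11 lower (-0.077). Rps3a1, of the 40S subunit, was among the long genes that rose. Among 15798 other genes r was 0.038, and among 7405 of those in the same length range it was -0.040. The shortest other genes were shifted the same way as the short members, with a median log2 fold change of 0.035 for 782 genes of up to 399 nt, -0.012 for 2747 genes of 402 to 798 nt and -0.028 for 3876 genes of 801 to 1299 nt. In each library the slope of log2 CPM on log2 coding length was fitted over the canonical members, and it averaged 0.652 ± 0.040 in naïve and 0.587 ± 0.051 in CIA mice (SD, n = 30 each). Over the other genes the slope was 0.138 ± 0.029 and 0.146 ± 0.028. RNA integrity and fragment length were not analysed here, and their part in this pattern was not tested. With the slope of the other genes as a covariate, 21 members were higher in CIA, and the share of all genes in that run was not counted. GC content of the coding sequence (r 0.034) and the shared share of 76-base stretches (r -0.034, 76 members) had no such relation. Of canonical members with a promoter entry, 4 of 27 with the pyrimidine tract were higher and 5 lower, against 5 and 10 of 30 without it.

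**Figure D2:**
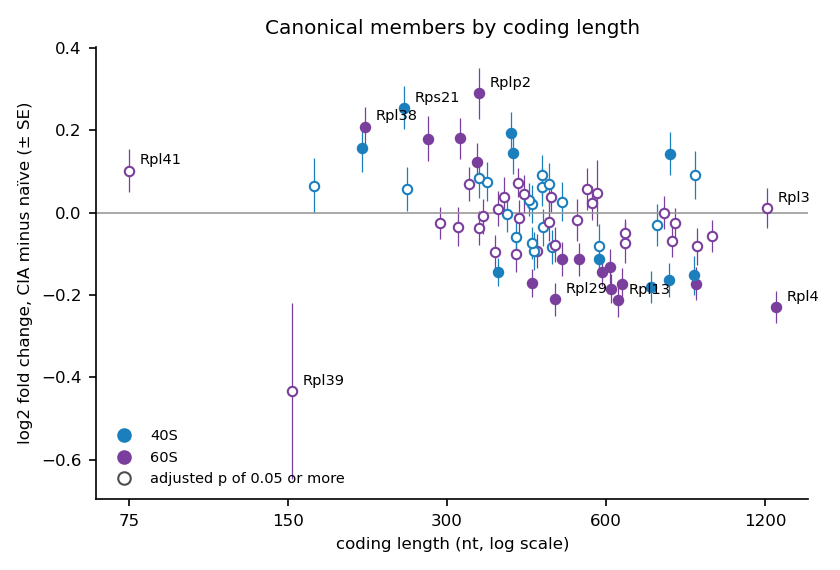
Log2 fold change (CIA minus naïve, ± SE) against coding length on a log scale for the canonical members shown; blue is 40S, purple 60S, and open circles did not pass. Called members under 405 nt, such as Rps21, Rpl38 and Rplp2, lie mostly above 0 and those over 576 nt, such as Rpl13 and Rpl4, mostly below.

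At single time points few members were called, with 5 mice against 5. At ZT0 0 members passed (0.0222% of all genes in either direction), at ZT4 0 (0.858%), at ZT8 0 (0.0332%) and at ZT16 0 (0.00554%) in the edgeR test. At an unadjusted p under 0.05 these counts were 7, 4, 0 and 12 of 87, against 3316, 3536, 1149 and 1952 of all genes. With only the libraries of that time point, or with DESeq2 size factors, 0 members passed at these 4 times.

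At ZT12, the onset of dark, 12 members passed, of which 0 were higher (2.86% of all genes) and 12 lower (6.42%). They were 8 canonical 60S genes, 3 canonical 40S genes and the paralog Rpl36al, and 10 of them also fell over all time points. Rpl29, a small 60S protein, had 48.8, 52.2, 54.5, 66.0 and 48.8 CPM in the 5 naïve mice and 37.5, 36.2, 33.3, 37.2 and 39.7 CPM in the 5 CIA mice. All naïve values lay above all CIA values, and the log2 fold change was -0.56 (SE 0.087, adjusted p = 0.000258). Rps25, a 40S protein used in initiation at viral internal entry sites, had 396, 410, 389, 461 and 357 CPM in naïve and 333, 291, 284, 326 and 325 CPM in CIA mice, again without overlap (-0.37, SE 0.070, adjusted p = 0.00103). Rpl4 had 830, 919, 787, 1002 and 777 CPM against 708, 640, 574, 670 and 632 CPM without overlap (-0.42, SE 0.088, adjusted p = 0.002). Rpl36al had 99.1, 119, 102, 135 and 103 CPM against 90.0, 88.1, 81.4, 84.4 and 94.5 CPM (-0.35, adjusted p = 0.00667). Naïve ZT12 replicate 4 was the highest naïve library for all 4 genes. Without it 6 members were lower, and without CIA ZT12 replicate 3 there were 7. With the 10 libraries of ZT12 alone, 3 were lower.

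At ZT20, late in the dark, 3 members passed, of which 3 were higher (6.14% of all genes) and 0 lower (6.88%). Rps21 had 261, 318, 320, 409 and 408 CPM in naïve and 495, 442, 400, 396 and 492 CPM in CIA mice, with 2 naïve values inside the CIA range (0.37, SE 0.12, adjusted p = 0.03). Rpl38 had 187, 219, 221, 308 and 286 CPM against 320, 315, 289, 284 and 328 CPM (0.33, SE 0.11, adjusted p = 0.0331). Rplp2 also passed (0.40, SE 0.14, adjusted p = 0.0495). These calls were fragile: 0 members were higher without Naïve ZT20 replicate 1, 2 or 3 or CIA ZT20 replicate 1 or 5, 1 without CIA ZT20 replicate 3, and 0 in the libraries of ZT20 alone. The calls at ZT12 and ZT20 do not show that treatment acted differently by time. In the test of the treatment by time interaction 0 members and 0% of all genes passed, with 2 members and 817 genes at an unadjusted p under 0.05. The members nearest to passing were Rpl29, Rps25 and Rpl36al, each with an adjusted p of 0.965 (edgeR).

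In a comparison of models given below, most members were assigned the same daily rhythm in both treatments, while fewer were called rhythmic within each. In naïve mice the members' share of the counted reads was lowest at ZT20, at 3.29% ± 0.365, and highest at ZT8, at 3.84% ± 0.327, and in CIA mice it was lowest at ZT0, at 3.32% ± 0.248, and highest at ZT4, at 3.81% ± 0.399 (SD, n = 5 each). Groups at neighbouring times overlapped, and the group ranges at the highest and lowest time overlapped as well, as 3.59% to 4.40% at ZT8 against 2.78% to 3.70% at ZT20 in naïve mice. The lowest share, 2.78%, belonged to Naïve ZT20 replicate 1.

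**Figure D3:**
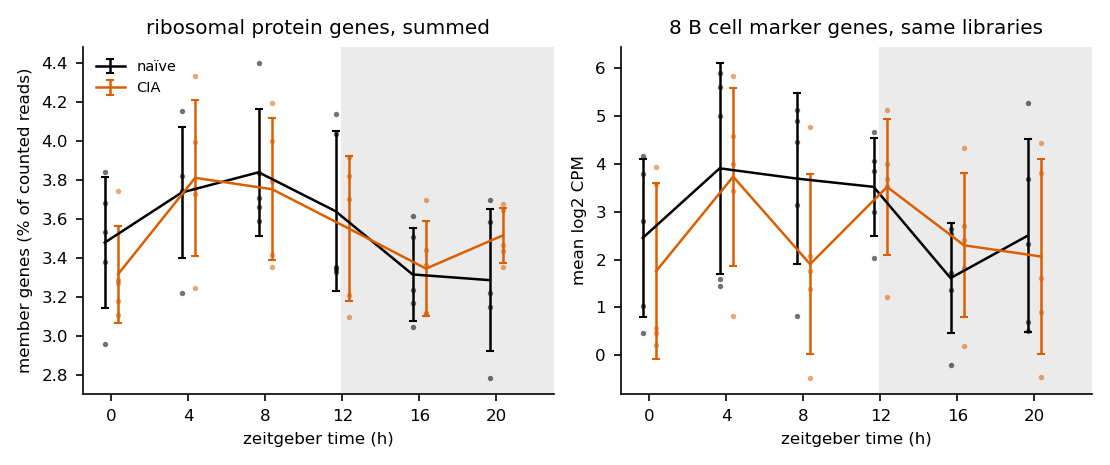
Left, members' summed share of counted reads per library (points) with the mean ± SD of 5 mice at each zeitgeber time, naïve in black and CIA in orange; right, the mean log2 CPM of 8 B cell markers in the same libraries. The share is highest at ZT4 to ZT8 in both treatments, the B cell markers are highest at ZT4 in both, and grey marks the dark phase.

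Gene by gene, 41 of 87 members had a 24 h rhythm in naïve mice (36.7% of all genes) and 12 of 87 in CIA mice (29.3%), in limma F tests with adjusted p under 0.05. The members' share in CIA mice thus lay below that of all genes, and the naïve count fell to 22 without Naïve ZT20 replicate 1. In the comparison of 5 models per gene, 58 members were assigned the same rhythm in both treatments (34.7% of all genes) and 11 no rhythm (35.7%). A loss of rhythm in CIA (4.65%), a gain (2.40%) and a change of phase or amplitude (0.233%) were each assigned to 0 members, and the remaining 18 had no model with a weight of 0.6. Fewer calls in CIA than in naïve mice do not show a lost rhythm: the test of a difference in rhythm called 0 members (0.0222% of all genes, which is 4 genes), none of the 87 had an unadjusted p under 0.05, against 1176 of all genes, and limma's version also called 0. The naïve amplitude was above the CIA amplitude in 64 of 77 canonical members, with no test of that count.

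Canonical members peaked in the middle of the light phase. Of the 52 assigned the same rhythm, 51 had a naïve peak between ZT4 and ZT10 and 0 in the dark. Their naïve peaks ran from ZT4.40 to ZT10.68 with a median of ZT7.63, and their CIA peaks from ZT5.32 to ZT9.73 with a median of ZT7.94. The swings were shallow, at a median log2 amplitude of 0.129 among naïve and 0.104 among CIA mice, or a fitted peak 1.2-fold and 1.16-fold above the trough. Canonical 40S genes had 24 of 31 and 60S genes 28 of 46 in this class. The class is fitted to both treatments together and does not require a rhythm called within each. Within naïve mice 17 of the 31 and 18 of the 46 were called rhythmic (36.7% of all genes). Within CIA mice only 1 of the 31 and 7 of the 46 were (29.3% of all genes). After the mean of each group was removed, pairs of canonical members, which share library scaling, had a median r of 0.806 over the 60 libraries. This value describes variation between mice within groups, not the rhythm itself. Members that move together across libraries are not independent results, so the counts of rhythmic members can shift together with 1 library. Rps27 and Rpl17 were among the canonical members of largest amplitude in this class. Rps27, of the 40S subunit, had 621, 676, 681, 653 and 798 CPM at ZT8 and 422, 509, 471, 634 and 665 CPM at ZT20 in naïve mice, where 2 of the 5 late values reach into the range at ZT8 (amplitude 0.19, SE 0.047, peak ZT8.62, adjusted p = 0.00505, limma). In CIA mice Rps27 had an amplitude of 0.13 (SE 0.047) and a peak at ZT9.73 (adjusted p = 0.0767). Rpl17, at the mouth of the exit tunnel, swung with amplitudes of 0.19 (naïve) and 0.16 (CIA), both with an SE of 0.041, with peaks at ZT7.87 and ZT8.50 (adjusted p = 0.00159 and 0.00874). The members nearest to passing for a difference in rhythm included Rpl29 and Rps25, with adjusted p of 0.731 and 0.763 in edgeR.

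Of the 6 paralogs and look-alikes assigned the same rhythm, 4 peaked in the dark (66.7%, beside 52.1% of all genes in this class). Rpl7l1 had 61.3, 66.4, 73.1, 76.1 and 57.8 CPM at ZT8 and 79.1, 94.1, 87.5, 94.4 and 98.8 CPM at ZT20 in naïve mice, without overlap, and 70.3, 67.2, 65.7, 70.9 and 54.9 against 82.4, 84.8, 83.7, 78.8 and 78.6 CPM in CIA mice, again without overlap. Its amplitude was 0.19 (SE 0.034) in naïve and 0.17 (SE 0.034) in CIA mice, with a peak at ZT18.0 in both (adjusted p = 9.59e-05 and 0.000438). Rpl7 had amplitudes of 0.084 and 0.092 with peaks at ZT7.56 and ZT6.84. Rps19bp1, which encodes a nucleolar protein that binds Rps19 and is not part of the ribosome, had 12.2, 14.4, 14.7, 13.5 and 14.7 CPM at ZT8 and 15.6, 20.9, 18.9, 18.7 and 21.9 CPM at ZT20 in naïve mice. All values at ZT20 lay above all values at ZT8, and its peak was at ZT19.3 in naïve and ZT18.7 in CIA mice (amplitudes 0.20 and 0.25, SE 0.038, adjusted p = 0.000276 and 8.65e-06), while Rps19 peaked at ZT7.47 and ZT7.44.

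Rps27l, the p53-induced paralog of Rps27, had 79.1, 105, 96.7, 95.9 and 83.0 CPM at ZT8 and 95.6, 111, 109, 129 and 124 CPM at ZT20 in naïve mice. It peaked at ZT19.2 in naïve mice (amplitude 0.13, SE 0.034, adjusted p = 0.00983) and at ZT19.8 in CIA mice (0.089, SE 0.034, adjusted p = 0.102). Rps27 and Rps27l encode closely related proteins from 252 nt of coding sequence each, and 26% of the stretches of Rps27l and 100% of those of Rps27 occur in other genes. Rpl36al, a paralog of Rpl36a, peaked at ZT18.9 in naïve and ZT20.8 in CIA mice (amplitudes 0.13 and 0.16, SE 0.037, adjusted p = 0.0122 and 0.00277), while Rpl36a peaked at ZT7.22 and ZT8.60. The stretches were compared with all other annotated genes, not with the partner alone. The part of shared reads in these profiles was not tested. The other 2 of the 6 peaked in the light: Rpl22l1 at ZT4.78, near Rpl22 at ZT7.15, and Rps23rg1 at ZT3.68 from levels under 2 CPM. Rpl3l, Rpl32l, Rpl37rt and Rps27rt were assigned no rhythm or no class.

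**Figure D4:**
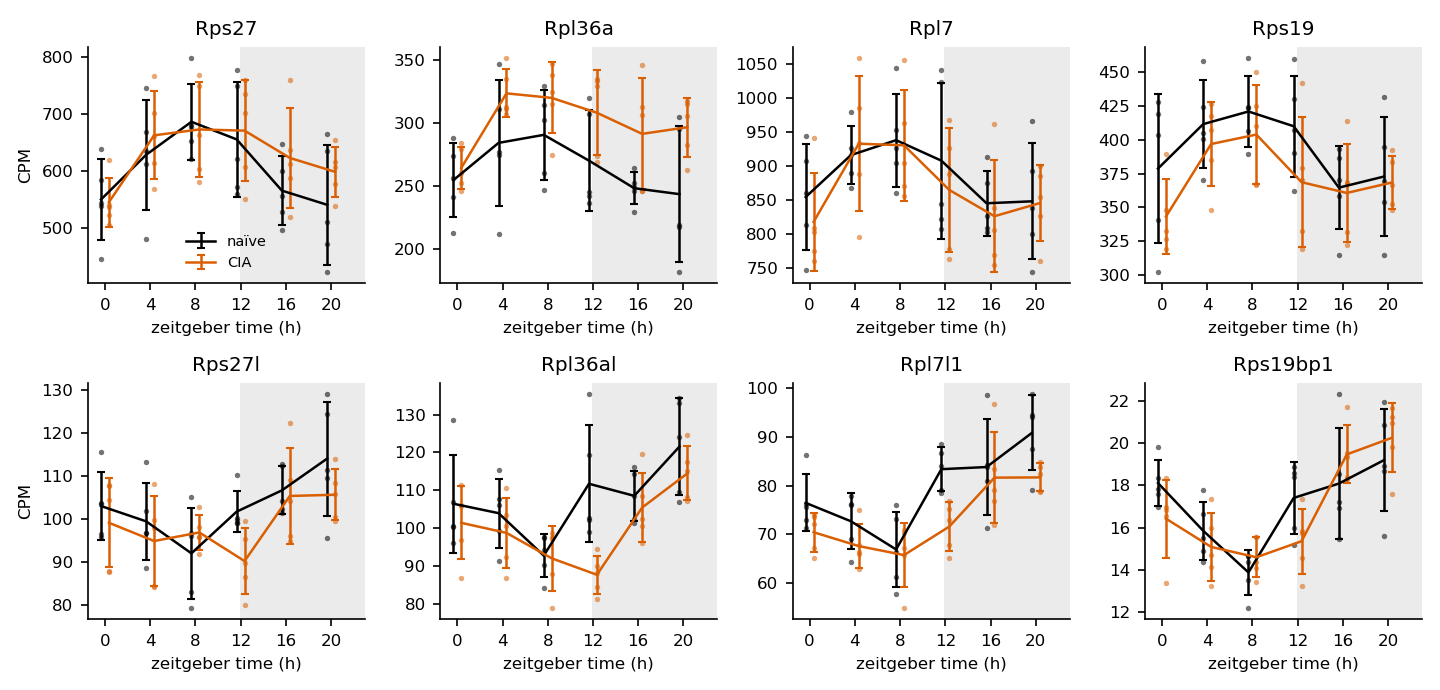
CPM by zeitgeber time in each library (points) with the mean ± SD of 5 mice, naïve in black and CIA in orange, for 4 canonical members (top) and their paralog or look-alike (bottom); axes do not start at 0 and grey marks the dark phase. The upper genes have their highest group mean at ZT4 or ZT8 and the lower genes at ZT20, in both treatments.

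**Figure D5:**
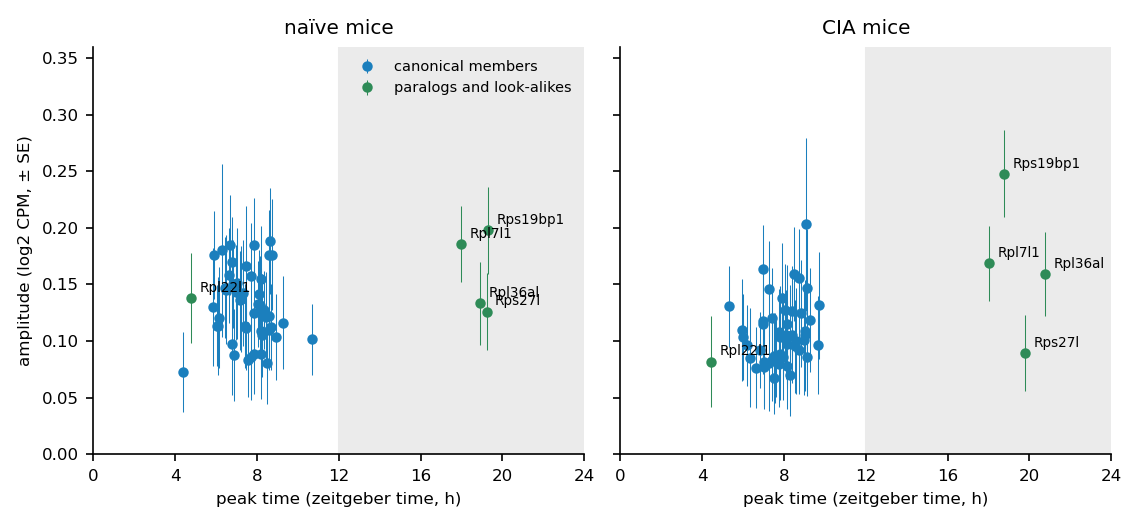
Peak time and amplitude (log2 CPM, ± SE) of members assigned the same rhythm, in naïve (left) and CIA mice (right), with canonical members in blue, paralogs and look-alikes in green and the dark phase in grey; Rps23rg1, at an amplitude of 0.66 and 0.93, is left out. The canonical members shown all lie in the light phase, and 4 labelled paralogs and look-alikes lie from about ZT18 to ZT21.

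Cell markers moved over the day as well. The B cell markers had no member called rhythmic, but their mean followed a fitted cosine with a peak at ZT6.65 in naïve mice, near the members' peak, and an amplitude of 1.02 on the log2 scale. In CIA mice its fitted peak was at ZT8.74 with an amplitude of 0.489, but the group means did not follow that curve. They were 3.73 at ZT4, 1.90 at ZT8 and 3.52 log2 CPM at ZT12 (SD 1.86, 1.89 and 1.42, n = 5 each). The mean of the T cell markers peaked at ZT6.78 in naïve mice, with an amplitude of 0.591, but at ZT23.9 in CIA mice, with an amplitude of 0.152. In naïve mice 7 of 8 enteric neuron and 8 of 10 crypt proliferation markers were called rhythmic, with means that peaked at ZT12.5 and ZT23.1. In CIA mice these counts were 0 and 7. Of 10 epithelium markers 2 were called rhythmic in naïve and 7 in CIA mice, where their mean peaked at ZT11.8. The part of these cell types in the members' rhythm was not tested. The B cell score, centred within each treatment, was also subtracted from log2 CPM before the rhythm fit. Then 21 members were rhythmic in naïve and 11 in CIA mice, and 34 were assigned the same rhythm, 4 of them with a peak in the dark. With the smooth muscle score subtracted instead these counts were 62, 17 and 62, with 4 in the dark. Neither run carried the uncertainty of the subtracted part into the rhythm test. With genes of at least 5 CPM on average, 74 members were rhythmic in naïve mice, 28 in CIA mice and 69 had the same rhythm. A single library mattered: without Naïve ZT20 replicate 1, 22 were rhythmic in naïve mice, and without CIA ZT8 replicate 5, 20 were rhythmic in CIA mice. Without the pair of libraries with skeletal muscle markers, 38 and 19 were rhythmic and 58 had the same rhythm. In each of these runs 4 members of the class peaked in the dark, while the size of the class varied. The shares of all genes in these runs were not counted.

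Genes that act with the ribosome were read beside its proteins, and the counts below stand beside the 17.6% of all genes that rose and the 20.4% that fell. Fau, a 40S protein made as a fusion to a ubiquitin-like domain, rose (medians 511 and 584 CPM, log2 fold change 0.20, SE 0.052, adjusted p = 0.0019), while Rack1, the 40S scaffold for signalling kinases, did not pass (-0.0034), and both had the same rhythm with a peak in the light. Of 6 elongation factors 0 rose and 3 fell, namely Eef1a1, which brings tRNA to the ribosome (medians 3317 and 2846 CPM, -0.20), Eef2, which drives translocation (1628 and 1378 CPM, -0.20), and Eef1g (-0.14), with adjusted p of 0.000155, 0.00239 and 0.00111. All 6 had the same rhythm, 4 with a peak from ZT4 to ZT10 and 2 in the dark. Of 29 initiation factors 2 rose and 8 fell, the smallest p being those of the helicase Eif4a1 (-0.25), and of the eIF3 subunits Eif3l (-0.18) and Eif3a (-0.21), and 10 of the 17 with the same rhythm peaked in the dark (58.8%, beside 52.1% of all genes in the class). Of 7 other mRNAs with a TOP motif, Btf3 rose (0.12) and 3 fell, among them Tpt1 (-0.23) and Pabpc1 (-0.24). Of 19 genes of the mTORC1 pathway 3 rose and 7 fell, with Eif4ebp1, the inhibitor of cap-dependent initiation, at 0.18, Larp1 at -0.12 and the upstream brake Tsc2 at -0.12, and 4 of 8 peaked in the dark. With the smooth muscle score as a term, Larp1 turned to 0.0026, and Eef1a1, Eef2, Eef1g, Eif4a1, Eif3l, Eif3a, Tpt1, Pabpc1, Tsc2 and Eif4ebp1 no longer passed (edgeR adjusted p from 0.0566 for Tpt1 to 0.647 for Eif4ebp1), while Fau and Btf3 did. Btf3 did not pass without ZT4 (adjusted p = 0.0623, edgeR).

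Among genes assigned the same rhythm, most of those that build ribosomes and of those of the mitochondrial ribosome peaked in the dark. Of 21 ribosome biogenesis genes 1 rose and 11 fell, with Nop56, a component of the nucleolar complex that methylates rRNA, at -0.40, Dkc1, the rRNA pseudouridine synthase, at -0.29, and Polr1b, a subunit of RNA polymerase I, at -0.30 (adjusted p = 3.17e-05, 8.73e-06 and 1.77e-05). Of the 14 with the same rhythm, 13 peaked in the dark, and the list's mean peaked at ZT17.8 in naïve and ZT19.4 in CIA mice. Of 77 mitochondrial ribosomal protein genes 3 rose and 28 fell (median -0.063), with Mrpl33 at 0.18, Mrpl14 at 0.19 and Mrps5 at -0.32, the last of which did not pass with the smooth muscle score as a term (adjusted p = 0.0615, edgeR). Of these 77 genes 18 were assigned no rhythm and 15 no class, and 38 of the 42 with the same rhythm peaked in the dark, 90.5%, beside 52.1% of all genes in the class and 0 of 52 canonical cytosolic members.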

How the data were processed

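Colon RNA from 60 mice was sequenced as stranded, paired libraries. Per the labels, bcl2fastq 2.17.1.14, Trimmomatic 0.36 and STAR 2.5.3 were used with mm10 (GRCm38), and the authors counted reads per Entrez gene with Rsubread. The deposited values are raw counts, not normalized. How the authors treated strand, pairs and reads with several places is not given in the sources used here. Even numbers made up 74.0% of the counts from 1 to 20 and 50.1% of those over 2000, and halving all counts gave 12 members higher and 18 lower. Symbols were taken from RefSeq, and 1904 rows without one held 0.539% of counts.

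Counts were filtered (edgeR 4.0.16 filterByExpr, minimum count 10, minimum total 15), which left 18057 of 27179 genes, scaled by TMM and tested by edgeR's quasi-likelihood test, over all time points, within each and for the interaction. Rhythms of 24 h were tested by limma 3.58.1 on log2 CPM (prior count 2), and classes needed a Schwarz weight of 0.6. An amplitude is the distance from the mean to the fitted peak. All p-values were adjusted over all genes, with a threshold of 0.05 (R 4.3.3). They set a difference against the spread between mice. In the comparison over all time points, which had no term for time, that spread also holds differences between times of day. Cell type and pathway lists gave scores as the mean log2 CPM of their genes. Alternatives were DESeq2 1.42.0, other filters, scalings, covariates and libraries left out, and the tests were tried on simulated counts. The covariates for the B cell score and for length slope were chosen after seeing the data. So were the rhythm fits with the B cell or smooth muscle score subtracted. The fits without the pair of libraries with skeletal muscle markers, and halved counts, were also chosen after seeing the data.

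Members, lists and tests were chosen with earlier results of these data known. Named genes were the 5 highest and 5 lowest called members, the 6 of largest naïve amplitude among those of the same rhythm, members of the other rhythm classes, the 3 of smallest p for the interaction and for the difference in rhythm, up to 2 per direction and time point, the paralogs with the genes they resemble, a fixed set of roles, the 3 highest and lowest per kilobase, and up to 3 genes per list by p. Other members named in the text were chosen after their values were seen. Replicate numbers are shared between treatments, but the labels tie them to nothing, and of 30 pairs with the same number and time 8 deviated together with r over 0.1 (range -0.471 to 0.446), so that they were not treated as pairs. Some genes are not reported here and are left out of the plots of single genes, but stay in the counts over members.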

Additional observations from a re-analysis of the deposited data

Results flagged for a closer look

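Among 180 groups of 5 mice, over 15 measures, 6 held a library whose gap to its nearest neighbour was a large part of the group's range (Dixon's ratio above 0.71). Chance flags about 5% of groups. In CIA ZT0 replicate 3 the members took 3.74% of the counts, against 3.11% to 3.29% in the other 4 libraries, and the mean of the canonical members in the same library was 8.59 log2 CPM, against 8.31 to 8.39. Rplp2 stood at 675 CPM in Naïve ZT8 replicate 5, with 545 to 580 CPM in the others. Rps21 was low in Naïve ZT0 replicate 5, at 290 CPM against 376 to 399 CPM, and this library had the second highest skeletal muscle markers. Rpl4 was low in CIA ZT4 replicate 3, at 570 CPM against 717 to 757 CPM. Rps27l was high in Naïve ZT12 replicate 2, at 110 CPM against 99.1 to 100 CPM. No cause of these values was tested.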

How the results depend on the processing

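With each of the 60 libraries left out in turn, 12 to 14 members were higher and 14 to 22 lower over all time points, with a median log2 fold change of -0.0351 to -0.00251. Rhythmic members numbered 22 to 50 in naïve and 8 to 20 in CIA mice, 43 to 68 had the same rhythm, 0 to 1 a gain, and 4 peaked in the dark in every run. At ZT4 0 to 1 were higher, at ZT12 0 to 3 higher and 6 to 14 lower, and at ZT20 0 to 4 higher and 0 to 1 lower. The gain came without CIA ZT4 replicate 3, the call at ZT4 without Naïve ZT4 replicate 4 and the lower call at ZT20 without CIA ZT20 replicate 2.

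With DESeq2 size factors 2 members were higher at ZT12. With a mean of at least 5 CPM the median log2 fold change of members over all time points turned to 0.013, 4 were higher at ZT12 and 7 at ZT20, 74 were rhythmic in naïve and 28 in CIA mice, and 1 lost its rhythm. With the smooth muscle score as a term 1 was lower, the median turned to 0.0631 and Larp1 turned to 0.00255. With that score subtracted before the rhythm fit, 62 were rhythmic in naïve mice and 1 gained a rhythm. A log2 fold change of at least 0.26 left 1 higher and 1 lower, which follows from the limit itself. The libraries of 1 time point alone gave 3 lower at ZT12 and 0 higher at ZT20. Akaike weights gave 1 loss, and a weight of 0.8 left 37 with the same rhythm. Without ZT12 11 were lower and the median turned to 0.00634, and without ZT16 7 were higher. With the length slope as a covariate 21 were higher and the median turned to 0.00445. Without the pair with skeletal muscle markers 19 were rhythmic in CIA mice. With the B cell score subtracted before the rhythm fit, 21 were rhythmic in naïve mice and 34 had the same rhythm. Beyond what is said, the cause was not tested, and the shares of all genes in these runs were not counted.

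With the replicate number as a block, 12 members were higher and 17 lower, with a median log2 fold change of members over all time points of -0.0194, 12 were lower at ZT12 and 3 higher at ZT20. Of the named genes it changed 1 call, that on the log2 fold change of Rpl7l1 (adjusted p = 0.0544, edgeR). Of the single genes' values under all alternatives, 2743 kept their direction and their side of the threshold, 99 no longer passed and 1 reversed. This tally holds only named genes that passed over all time points. For each gene 60 of the alternatives left out just 1 library, so most values could change little. Rpl10l and Rpl39l were too low to test at this depth.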
